A study of Drosophila melanogaster with 15 samples.

Results

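The Bearded family is a group of small Drosophila proteins that restrain Notch signalling. They bind Neuralized, the ubiquitin ligase that drives uptake of the Notch ligand Delta into the sending cell, and keep it from acting on Delta. In the blastoderm the genes of the Bearded complex are known to be expressed in the ectoderm and repressed in the future mesoderm by Snail, and the family genes inside the Enhancer of split complex are known as targets of Notch through the DNA-binding protein Su(H). The family was taken here as every probe set whose only gene symbol in the platform annotation was Tom, Brd, Ocho, E(spl)malpha-BFM, E(spl)m2-BFM, E(spl)m4-BFM or E(spl)m6-BFM. These are 7 genes with 8 probe sets, of 10844 genes with 12443 probe sets that carry a single symbol. In the RefSeq gene order of Release 6, Tom, Brd and Ocho follow each other in this order on chromosome arm 3L with BobA before Tom. The other 4 lie on arm 3R among the basic helix-loop-helix genes of the Enhancer of split complex: E(spl)malpha-BFM next to E(spl)mbeta-HLH, E(spl)m2-BFM next to E(spl)m3-HLH, E(spl)m4-BFM between E(spl)m3-HLH and E(spl)m5-HLH, and E(spl)m6-BFM between E(spl)m5-HLH and E(spl)m7-HLH.

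RNA of whole, untreated Drosophila melanogaster embryos was measured on 15 Affymetrix arrays, 3 at each of 5 stages for which embryos were hand-picked by their morphology. T0 embryos were younger than nuclear cycle 9 and had no pole cells yet, T1 embryos were in the slow phase and T2 embryos in the fast phase of cellularisation, when membranes grow in between the blastoderm nuclei. The sample labels put T3 and T4 at the start and end of germ band elongation, while the series text puts them at the start and end of gastrulation, and the arrays do not settle which is meant. The stocks named are yellow white and Oregon R, as parents for T0 and T1 and as embryos for T2 to T4, from egg lays at 25 °C that were aged at room temperature. How many embryos went into an array, how the 2 stocks were mixed, and whether the 3 arrays of a stage came from separate collections are not given in the labels, so a p-value speaks only of the scatter among the arrays at hand, which can be technical in origin. Because whole embryos were extracted, fewer cells that express a gene and less RNA per cell cannot be told apart.

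Signals are linear array units, scaled so that the trimmed mean of each array lay between 100.01 and 100.02. A signal at or below 21.96, the 95th percentile of 23 negative-control probe sets, is called background here, and 39.0% to 49.8% of the signals of an array lay there. Log2 values over all probe sets correlated at 0.925 to 0.964 between arrays of the same stage and at 0.749 to 0.949 between arrays of different stages. The stage labels were checked against fixed marker genes. All 3 measured maternal markers (osk, bcd, png) were lower at T1 than at T0, with a summed signal of 2461 to 2871 at T0 and 113 to 176 at T1. The 3 pole cell genes vas, pgc and gcl were also lower at T1, with 1995 to 2431 at T0 and 308 to 344 at T1. The 4 cellularisation genes slam, nullo, halo and Sry-alpha summed to 18184 to 19656 at T1 and to 3001 to 3278 at T2. Eggshell and yolk protein genes of the mother's ovary summed to 108 to 283 on every array, with no call at any step. Of 4 markers of older embryos 2 were measured. They summed to 3.1 to 14.5 at T0, to 40.5 to 62.1 at T3 and to 41.6 to 69.2 at T4. At T4 elav was called higher than at T0 (log2 difference 1.77, limma adjusted p = 0.0054) and Act88F was not.

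A difference was tested on log2(signal + 7.3) in a limma fit over all 13966 probe sets, so a log2 difference understates the change of a dim gene. A probe set was called where its Benjamini-Hochberg adjusted p was under 0.05 and its log2 difference at least 1. Over the whole course 6 of the 7 genes, and 7 of the 8 probe sets, changed at some stage by the moderated F test, against 44.1% of all probe sets. Over the probe sets that passed, the adjusted p of this test ran from 6.2e-11 for the brighter to 1.1e-05 for the dimmer Ocho probe set, and it was 0.69 for E(spl)m6-BFM, the gene that did not pass. Every family call at any pair of stages was upward in time. Where stages are said below to overlap or not, this describes the arrays of that probe set only. The share of all probe sets whose stages separate in this way was not counted.

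**Figure D1:**
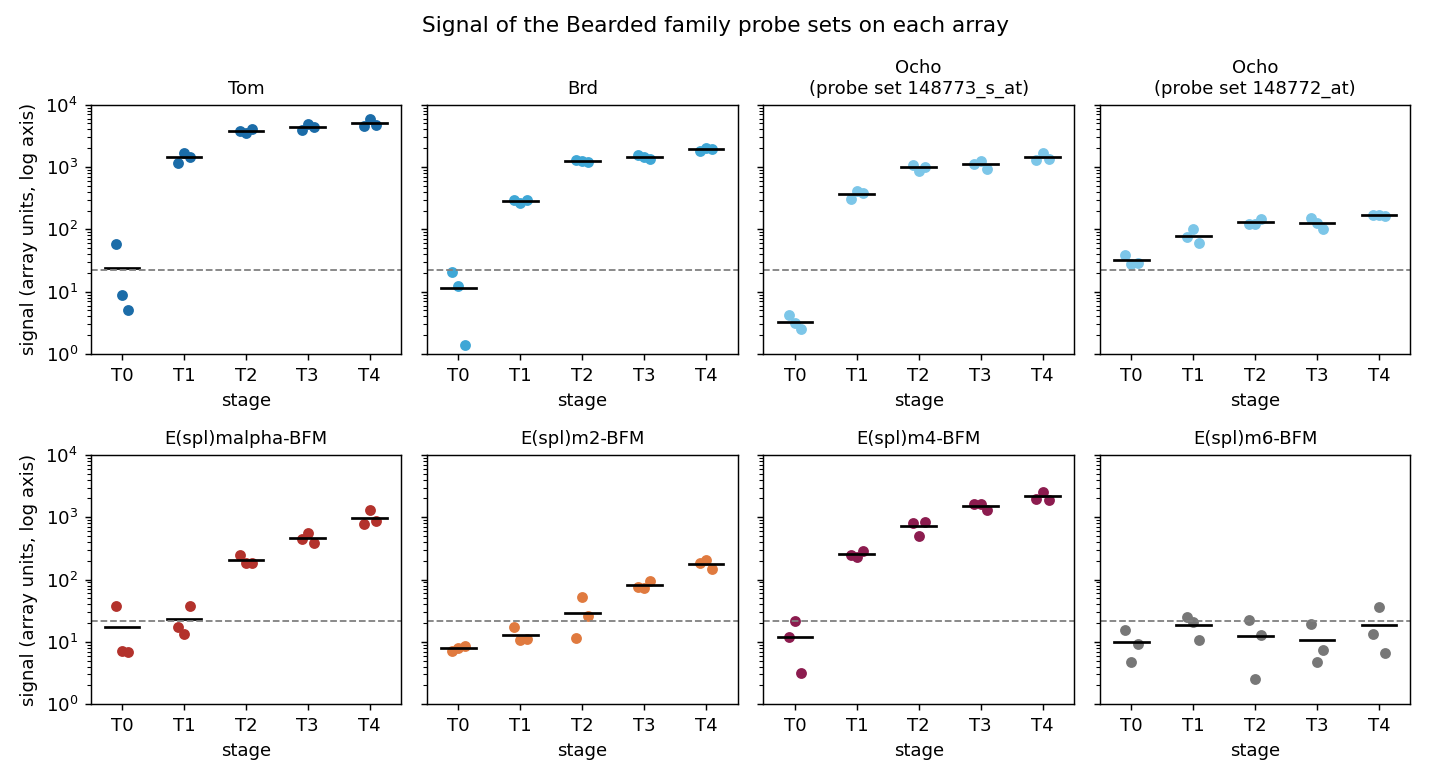
Signal of the 8 Bearded family probe sets on a log axis by stage (T0 to T4), with 1 point per array and a black bar at the mean of the 3 arrays. The dashed line is the background level of 21.96, and 6 of the 7 genes rise above it while E(spl)m6-BFM stays around it at every stage.

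Tom (probe set 153558_at), a Bearded complex gene whose product inhibits Neuralized, was near background at T0 and bright from T1 onward. Its signals were 58.0, 8.9 and 5.0 at T0, and 1181, 1672 and 1464 at T1. At T2 they were 3752, 3546 and 4123, at T3 3961, 4827 and 4461, and at T4 4593, 5796 and 4687. Stages T0, T1 and T2 did not overlap, whereas T3 overlapped with both of its neighbours, and 1 of the 3 T0 arrays (replicate 2) lay above background. Replicate 2 was also the brightest T0 array for Brd, both Ocho probe sets, E(spl)malpha-BFM and E(spl)m6-BFM. For E(spl)m2-BFM and E(spl)m4-BFM it was not, and the cause was not tested. Tom rose by 5.93 ± 0.44 (SE) on the log2 scale from T0 to T1 (adjusted p = 1.7e-07). From T1 to T2 its mean went from 1439 ± 246 to 3807 ± 292 (SD, n = 3), a log2 difference of 1.41 ± 0.44 that missed the threshold (adjusted p = 0.052). The spread behind this test is shared by the 5 stages and holds the wide log2 spread of Tom at T0: with T1 and T2 fitted alone the same difference had an adjusted p of 0.012, and over all alternatives it ran from 0.0019 to 0.17. T3 and T4 each exceeded T1 (log2 difference 1.62, adjusted p = 0.017, and 1.81, adjusted p = 0.0069).

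Brd (143088_at), the founding member of the family, stood at a lower share of its own T4 mean at T1 than Tom and Ocho did. Its 3 T0 arrays read 20.8, 12.2 and 1.4, all at background. T1 arrays read 295.9, 265.1 and 290.6, and T2 arrays 1314, 1257 and 1208. T3 arrays read 1569, 1449 and 1343 and T4 arrays 1833, 2010 and 1979. No stage overlapped with any other. Brd was at least 12.9-fold higher at T1 than at T0, a bound set by the dim T0 signals (adjusted p = 1.9e-07), and rose again by 2.12 ± 0.31 from T1 to T2 (adjusted p = 0.00045). The later steps were not called, with log2 differences of 0.20 for T3 against T2 (adjusted p = 0.84) and 0.42 for T4 against T3 (adjusted p = 0.64).

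Ocho, another family gene of the Bearded complex, had 2 probe sets. The brighter, 148773_s_at, stands for the gene, and its suffix marks probes that can match more than 1 transcript, though the annotation names only Ocho. It read 4.3, 3.1 and 2.5 at T0, all at background, then 304.1, 410.3 and 387.6 at T1. It went on to 1084, 863.1 and 1002 at T2, to 1114, 1256 and 926.8 at T3, and to 1295, 1678 and 1330 at T4. T2 and T3 overlapped and no other stages did. The gene was at least 16.6-fold higher at T1 than at T0 (adjusted p = 3.7e-10) and rose by 1.41 ± 0.20 from T1 to T2 (adjusted p = 0.00032), and neither later step was called. The second probe set, 148772_at, moved the same way over a narrower range, from 27.6 to 39.4 at T0 over 60.4 to 100.7 at T1 to 161.0 to 170.9 at T4. Its T1 call (log2 difference 1.12 ± 0.21, adjusted p = 0.0009) was lost without T1 replicate 2, where the difference was 0.95, with the median signal as pseudocount, where it was 0.81, and when each array was centred on its ribosomal protein probe sets (ribosomal centring), where it was 0.38.

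E(spl)m4-BFM (143251_at) was the gene of the Enhancer of split group already called at T1. It read 11.8, 21.3 and 3.2 at T0, at background on all 3 arrays, and 249.5, 234.4 and 290.8 at T1. T2 arrays read 806.3, 500.6 and 843.5, T3 arrays 1629, 1650 and 1313, and T4 arrays 1950, 2583 and 1924. No stage overlapped with any other. E(spl)m4-BFM was at least 11.7-fold higher at T1 than at T0 (adjusted p = 4.1e-07) and rose by 1.42 ± 0.32 from T1 to T2 (adjusted p = 0.0083). With a pseudocount of 1 the second of these calls was lost (adjusted p = 0.068, in a range of 0.00036 to 0.068 over the alternatives). The next step, from 717 ± 188 to 1531 ± 189, had a log2 difference of 1.12 ± 0.32 and was not called (adjusted p = 0.10).

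E(spl)malpha-BFM (143259_at) overlapped with T0 in the slow phase of cellularisation and rose in the fast phase. Its signals were 37.5, 7.1 and 6.9 at T0, and 17.4, 13.5 and 37.8 at T1. They were 251.0, 183.6 and 185.9 at T2, 452.4, 566.9 and 390.0 at T3, and 787.8, 1290 and 876.1 at T4. T0 and T1 overlapped, with 1 array above background in each, and from T1 onward no stage overlapped with another. The log2 difference was 0.45 for T1 against T0 (95% interval -0.44 to 1.33, adjusted p = 0.51), and the gene rose by 2.89 ± 0.41 from T1 to T2 (adjusted p = 0.00037). Without T0 replicate 2, the brightest of the 3, the first of these differences was 1.00 (adjusted p = 0.038, not called), and without T1 replicate 3, the brightest there, it was 0.12 (adjusted p = 0.90). Differences of 1.15 ± 0.41 for T3 against T2 and 1.04 ± 0.41 for T4 against T3 were not called (adjusted p = 0.21 and 0.29).

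E(spl)m2-BFM (143246_at) was the last of the 6 to leave background. All 3 arrays of T0 (7.2, 8.1 and 8.7) and of T1 (17.5, 10.8 and 11.1) were at background. T2 arrays read 11.5, 51.8 and 25.6, so that 2 of the 3 were above it, T3 arrays 76.5, 72.3 and 95.6, and T4 arrays 187.1, 208.2 and 146.9. T2 overlapped with T1, and T3 and T4 lay above all earlier arrays and apart from each other. E(spl)m2-BFM was the 1 family gene called from T2 to T3, with a rise of 1.41 ± 0.32 (adjusted p = 0.043). This call was lost without T2 replicate 1, without T2 replicate 4 and without any single T3 array, where adjusted p ran up to 0.13, and was kept without T2 replicate 3 (adjusted p = 0.0065). It was also lost with a pseudocount of 1, with the median signal as pseudocount, with replicate number as a block and with T2 and T3 fitted alone. Over all alternatives its adjusted p ran from 0.0065 to 0.27. The preceding difference, 0.72 for T2 against T1 (adjusted p = 0.19), was called without T2 replicate 1, the dimmest T2 array (1.13, adjusted p = 0.017, in a range of 0.017 to 0.57 over the alternatives). Against T0 the gene was called at every stage from T2 on, at least 1.13-fold higher at T2, 3.68-fold at T3 and 8.15-fold at T4 (adjusted p = 0.014, 2.9e-05 and 1.1e-06).

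E(spl)m6-BFM (143253_at) stayed around background. It read 15.3, 4.8 and 9.4 at T0, 24.7, 21.1 and 10.7 at T1, 22.3, 2.5 and 12.9 at T2, 19.6, 4.7 and 7.4 at T3, and 13.6, 35.9 and 6.7 at T4. All stages overlapped, and 12 of the 15 arrays were at background. No pair of stages was called, and for T4 against T0 the log2 difference of 0.49 had a 95% interval of -0.54 to 1.51. The probe set does not show whether the transcript was absent or below what these probes measure.

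Counted by step, 4 of 7 genes were higher at T1 than at T0 (Tom, Brd, Ocho and E(spl)m4-BFM), where 7.82% of all probe sets were called higher. The median log2 difference over the 7 genes was 3.89, against 0.08 over all probe sets. From T1 to T2 again 4 of 7 were higher (Brd, Ocho, E(spl)malpha-BFM and E(spl)m4-BFM), against 5.39% of all probe sets, with a median of 1.41 against 0.14. From T2 to T3 1 of 7 was higher, E(spl)m2-BFM, against 0.666%, and the median was 0.21. From T3 to T4 limma called 0 of 7 higher, against 0.516%. By an unadjusted p under 0.05 the genes higher at the 4 steps in turn were 4, 6, 3 and 2 of 7, the last 2 being E(spl)malpha-BFM and E(spl)m2-BFM, against 19.5%, 14.7%, 7.31% and 7.59% of all probe sets. By the same rule 0 of 7 were lower at each step, against 19.3%, 9.45%, 6.49% and 5.24%. Between the ends of the series, T0 and T4, 6 of 7 were higher, against 11.9% of all probe sets, with a median of 6.85 against 0.19. The family was chosen with results of these data known, so these counts describe it and are not independent evidence.

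**Figure D2:**
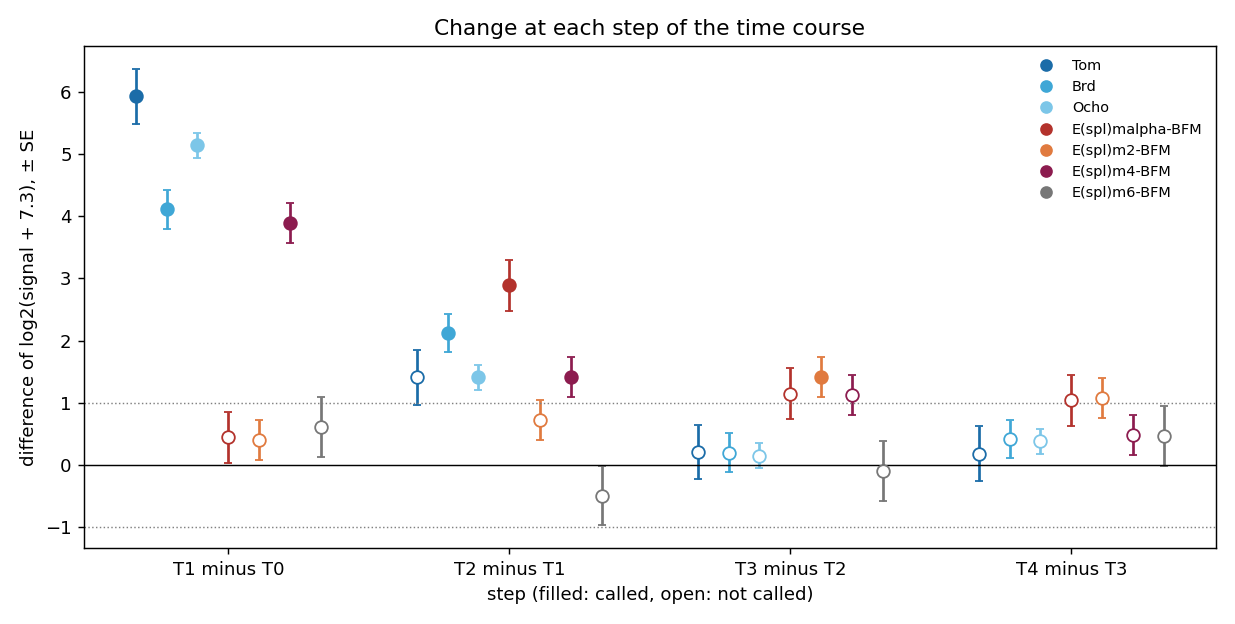
Log2 difference (± SE of the limma fit) of each of the 7 genes at each successive step, filled where called and open where not, with dotted lines at 1 and -1. Filled points crowd at the first 2 steps, with 4 genes each, and only E(spl)m2-BFM is filled at T3 minus T2.

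Set against its own T4 mean, each Bearded complex gene stood higher at T2 than each of the 3 Enhancer of split members that rose, with E(spl)m6-BFM left out as its T4 mean was itself at background. At T1 Tom stood at 28.6% ± 4.9 of it (SD, n = 3), Ocho at 25.6% ± 3.9 and Brd at 14.6% ± 0.849. E(spl)m4-BFM stood at 12.0% ± 1.36, while E(spl)malpha-BFM and E(spl)m2-BFM were still around background. At T2 the 3 Bearded complex genes had reached 75.8% ± 5.82 (Tom), 68.5% ± 7.77 (Ocho) and 64.9% ± 2.73 (Brd). The 3 Enhancer of split members that rose were at 33.3% ± 8.74 (E(spl)m4-BFM), 21.0% ± 3.89 (E(spl)malpha-BFM) and 16.4% ± 11.3 (E(spl)m2-BFM), so the means of the groups did not overlap. At T3 E(spl)m4-BFM, at 71.1% ± 8.77, had come within the SD of Brd at 74.9% ± 5.84 and Ocho at 76.6% ± 11.5 but not of Tom at 87.9% ± 8.65, while E(spl)malpha-BFM (47.7% ± 9.11) and E(spl)m2-BFM (45.1% ± 6.87) were lower.

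**Figure D3:**
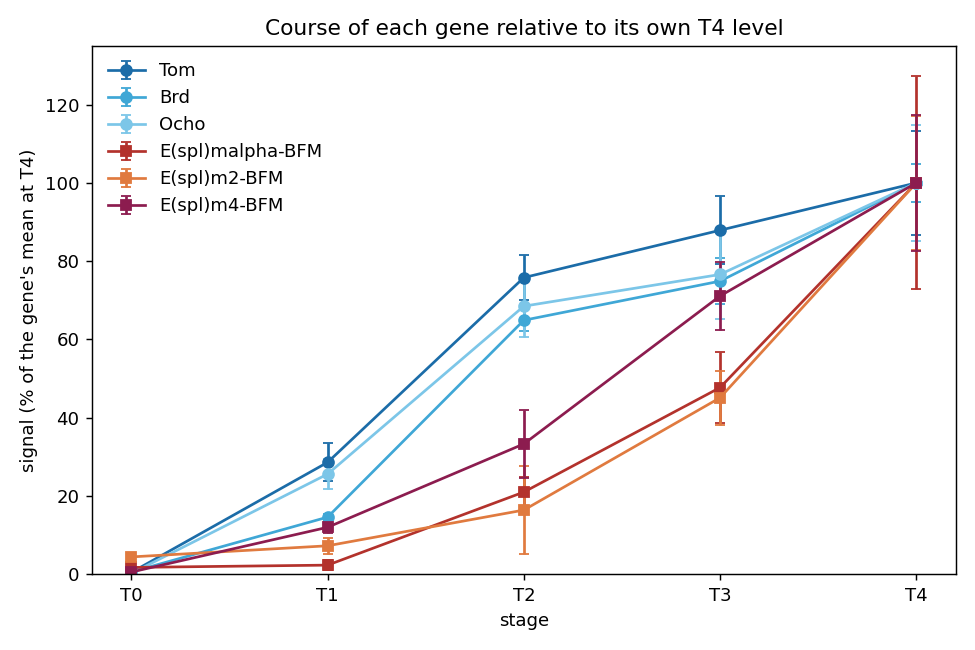
Signal of 6 family genes by stage as a percentage of each gene's own mean at T4, with circles for the Bearded complex, squares for the Enhancer of split complex and bars for the SD of 3 arrays. At T2 the circles lie between 64.9% and 75.8% and the squares between 16.4% and 33.3%.

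From T2 to T4 these 3 Enhancer of split members were called higher, 3 of 7 genes against 4.77% of all probe sets. E(spl)m2-BFM rose by 2.49 ± 0.32 (adjusted p = 0.00024), E(spl)malpha-BFM by 2.19 ± 0.41 (adjusted p = 0.0033) and E(spl)m4-BFM by 1.60 ± 0.32 (adjusted p = 0.0047). The Bearded complex genes were not called: the log2 difference was 0.39 for Tom (95% interval -0.56 to 1.35, adjusted p = 0.67), 0.62 for Brd (-0.05 to 1.29, adjusted p = 0.25) and 0.54 for Ocho (0.11 to 0.96, adjusted p = 0.10). The arrays of T4 lay above those of T2 for these 3 genes as well, but the share of all probe sets separated in this way was not counted. The difference between the complexes was set up as the change from T2 to T4 of the log2 ratio of an Enhancer of split member to a Bearded complex member on the same array, a comparison chosen with the values known. All 9 such pairs moved toward the Enhancer of split member, by 0.98 (E(spl)m4-BFM over Brd) to 2.09 (E(spl)m2-BFM over Tom). The pairs share genes and arrays and restate the differences per gene given above, so they are not 9 separate observations. Each had an exact two-sided permutation p of 0.10, the smallest that 3 arrays against 3 can give, and 0.10 after adjustment over the 9, so this test could not pass 0.05.

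Over the 15 arrays the log2 values of Tom, Brd and Ocho correlated pairwise at Pearson r of 0.981 to 0.988. E(spl)m4-BFM correlated with these 3 at 0.957 to 0.984, more closely than with its complex neighbours E(spl)malpha-BFM (0.877) and E(spl)m2-BFM (0.803). E(spl)malpha-BFM and E(spl)m2-BFM correlated with each other at 0.894. E(spl)m6-BFM had r between 0.001 and 0.195 with the rest. These points share arrays and stages, so r here describes a likeness in time course and no more.

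neur, which encodes Neuralized, the target of the family, rose by 1.78 ± 0.21 from T0 to T1 (adjusted p = 1.5e-05), from 111.5, 92.0 and 75.3 to 351.6, 294.3 and 358.8. This probe set was above background on all 3 T0 arrays. From T1 on it held 82.9%, 94.5% and 99.4% of its T4 mean at T1, T2 and T3, with no further call. Its dimmer second probe set went from 12.9 ± 10.2 at T0 to 56.7 ± 8.83 at T1 and 82.4 ± 17.3 at T4. Of 7 listed ligand, receptor and ligand-uptake genes 3 were measured. lqf, the epsin of Delta uptake, fell by 1.03 ± 0.24 from T0 to T1 (adjusted p = 0.0036), a call lost under 6 of 15 alternatives, among them the omission of T0 replicate 3 or T1 replicate 1. shi, which encodes dynamin, was not called at any step (98.4 ± 16.5 at T0, 68.6 ± 6.26 at T4).

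Of the 14 listed genes of Notch processing and modulation 9 were measured, and at T1 against T0 2 were higher and 2 lower. Of all probe sets 7.82% were called higher and 2097 of 13966 lower at this step. kuz, the protease that cuts Notch at the cell surface, went from 45.8 ± 8.3 to 113 ± 15.3 (adjusted p = 0.00078), a call lost with ribosomal centring and with the median signal as pseudocount. O-fut1, the O-fucosyltransferase of Notch, sat at the threshold with a log2 difference of 1.00 and lost its call under 7 of 15 alternatives, among them the omission of T0 replicate 4, T1 replicate 1 or T1 replicate 2. dx, a ubiquitin ligase acting on Notch, fell by 2.35 ± 0.17 and Nedd4, another, by 1.64 ± 0.30 (adjusted p = 1.6e-07 and 0.00057), calls kept under all 15 alternatives. numb, an inhibitor of Notch in asymmetric division, was not called at any of these steps (371 ± 27.8 at T0, 627 ± 157 at T1), nor was rumi, a glucosyltransferase of Notch (130 ± 3.05 and 82.8 ± 4.93). No gene of this list was called at the 3 later steps, where 5.39%, 0.666% and 0.516% of all probe sets were called higher. Called lower there were 594, 108 and 78 of 13966. Against T0 kuz, Psn and Su(dx) were called higher and Nedd4 lower at T4, where 11.9% of all probe sets were higher and 1716 of 13966 lower. The calls of kuz, Psn and Su(dx) were lost with ribosomal centring, that of Psn also with centring on the array median, and the second Su(dx) probe set read 49.2 ± 12.5 at T0 and 41.2 ± 7.31 at T4.

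Of 5 nuclear factors 4 were measured. H, the corepressor that binds Su(H), fell by 2.92 ± 0.38 from T1 to T2 (adjusted p = 0.00017), from 297 ± 92.2 to 32.1 ± 8.04. The second H probe set read 24.9 ± 2.25 and 20.9 ± 7.72 at these stages, so the fall rests on the first. gro, the corepressor of the Enhancer of split proteins, had probe sets that went opposite ways after T2: the brighter fell by 1.33 ± 0.20 from T2 to T4 (981 ± 88.5 to 387 ± 65.4), and the other read 791 ± 178 and 894 ± 150. No direction is given for gro. CtBP, another corepressor, was 441 ± 33.6 at T0 and rose by 1.42 ± 0.21 to 1199 ± 202 at T4 (adjusted p = 0.00014), a call lost with ribosomal centring. mam, the coactivator of the Notch complex, was not called on its brighter probe set (2262 ± 926 at T0, 3544 ± 864 at T4). The second mam probe set was far dimmer and read 29.5 ± 14.7 at T0, 41.6 ± 14.9 at T2 and 69.5 ± 21.4 at T4. No level is given for mam.

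The Enhancer of split complex genes outside the family, most of them repressors that carry out the Notch response, rose at different steps and all of those measured between T2 and T4. Of 8 listed 6 were measured, 2 were higher at T1, 2 from T1 to T2, 1 from T2 to T3, 2 from T3 to T4, and 6 of 6 at T4 against T2. Of all probe sets 7.82%, 5.39%, 0.666%, 0.516% and 4.77% were called higher in these comparisons in turn. E(spl)m5-HLH, the neighbour of E(spl)m4-BFM, read 29.8, 16.6 and 34.1 at T1, 215.6, 193.2 and 211.4 at T2 and 598.8, 610.5 and 496.0 at T4. It rose by 2.69 ± 0.26 from T1 to T2 (adjusted p = 2.1e-05), and its T2 level was 36.4% of its T4 mean. E(spl)m7-HLH rose by 1.60 ± 0.20 at the same step (adjusted p = 0.00017), from 130.8, 140.8 and 109.5 to 414.4, 361.4 and 420.1, and stood at 24.6% of its T4 mean at T2. Both T1 calls, at log2 differences of 1.16 and 1.47, were lost with ribosomal centring, and that of E(spl)m5-HLH also without T0 replicate 4. E(spl)m7-HLH was called at T4 against T3 as well (log2 difference 1.08, adjusted p = 0.017). That call was lost under 8 of 15 alternatives, among them the omission of T3 replicate 1, T3 replicate 3, T4 replicate 1 or T4 replicate 2.

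E(spl)mdelta-HLH was at background on all arrays of T0, T1 and T2, as was E(spl)m3-HLH. E(spl)mdelta-HLH read 36.9, 41.5 and 33.1 at T3 (adjusted p = 0.024 against T2) and 324.1, 244.4 and 318.5 at T4 (a rise of 2.76 ± 0.39 from T3, adjusted p = 0.0038). The T3 call was lost under 8 of 15 alternatives, among them the omission of T2 replicate 3, T2 replicate 4 or any T3 array. E(spl)mbeta-HLH, beside E(spl)malpha-BFM, rose by 1.83 ± 0.37 from T2 to T4 (adjusted p = 0.0051) and was at 26.0% of its T4 mean at T2. E(spl)m1, a gene of the complex outside the repressor group, rose by 1.94 ± 0.42 over the same interval (adjusted p = 0.0082). The T4 call of E(spl)m3-HLH against T2 (adjusted p = 0.045) was lost under 11 of 14 alternatives, among them the omission of any T2 array, T4 replicate 1 or T4 replicate 2.

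**Figure D4:**
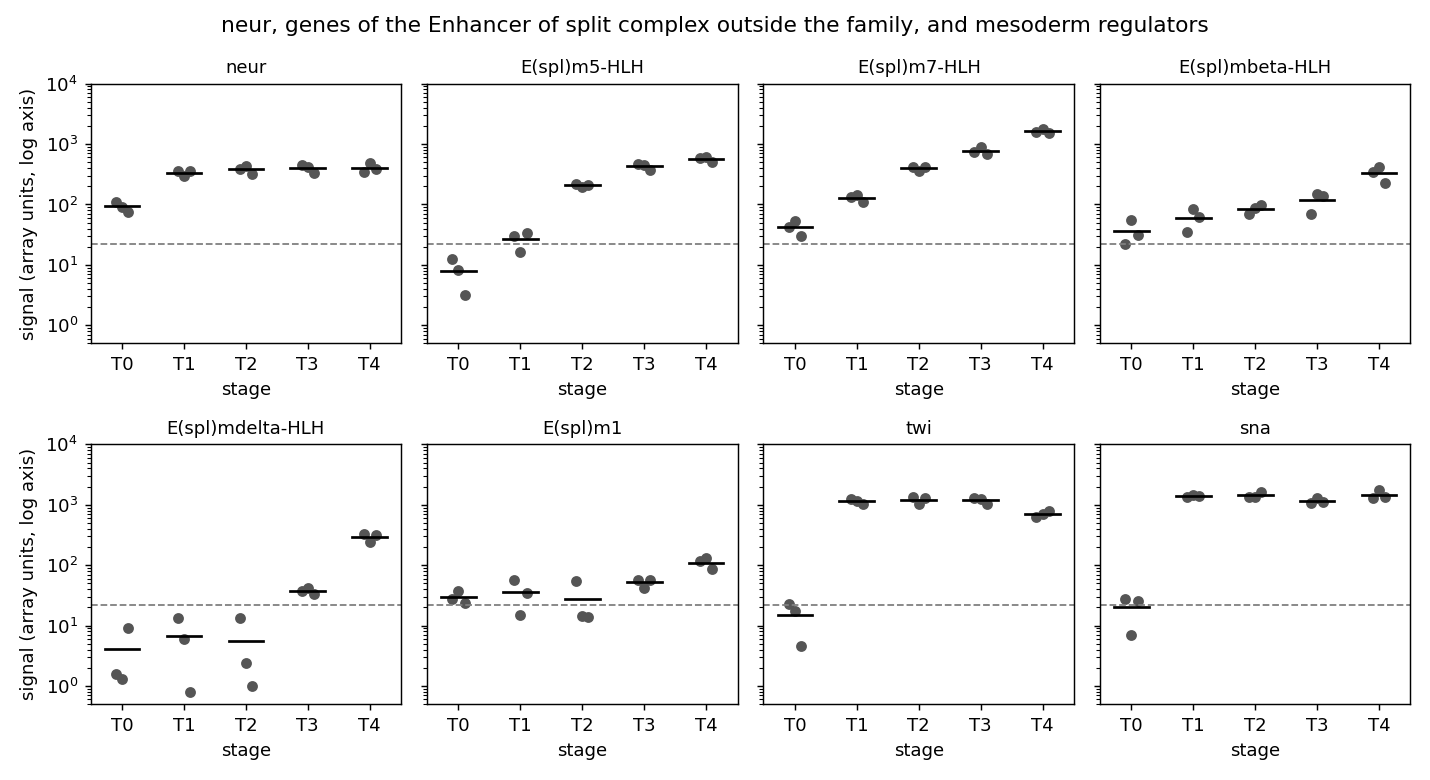
Signal by stage on a log axis for neur, 5 Enhancer of split complex genes outside the family, and the mesoderm regulators twi and sna, with 1 point per array, a bar at the mean and a dashed line at the background of 21.96. neur and sna show no call after T1 and twi reads lower at T4 (700 ± 74.2) than at T3 (1189 ± 141) without a call, while E(spl)m5-HLH and E(spl)m7-HLH climb to T4 and E(spl)mdelta-HLH leaves background at T3.

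Of 10 proneural and neural precursor genes 9 were measured, with 5 higher and 1 lower at T1, 3 higher at T2 against T1 and 1 higher at each later step. Of all probe sets 7.82%, 5.39%, 0.666% and 0.516% were called higher at these 4 steps in turn, and 2097 of 13966 were called lower at T1. mira, an adaptor of asymmetric neuroblast division, went from 18.2 ± 11.9 at T0 to 1397 ± 233 at T1 (adjusted p = 8.5e-09) and SoxN, a neural Sox factor, from 3.17 ± 2.89 to 138 ± 24.2 (adjusted p = 2.1e-08). l(1)sc, a proneural gene, read 3.37 ± 0.839, 36.4 ± 7.62, 131 ± 18.9, 237 ± 64.4 and 528 ± 44.8 from T0 to T4 and was called at the first 2 steps and at T4 against T3. That last call (log2 difference 1.16, adjusted p = 0.016) was lost without T3 replicate 1, T3 replicate 3, T4 replicate 2 or T4 replicate 3. emc, an inhibitor of proneural proteins, rose by 2.28 ± 0.27 from T0 to T1 (adjusted p = 1.3e-05), and sc, a proneural gene, by 1.03 ± 0.27 (adjusted p = 0.008), a call lost under 5 of 15 alternatives, among them the omission of T0 replicate 2 or T1 replicate 1. ac and ato, also proneural, reached 36.8 ± 4.84 and 112 ± 40.2 at T4. The call at T3 against T2 was that of ac (log2 difference 1.61, limma adjusted p = 0.014). It was lost under 5 of 14 alternatives, among them the omission of T3 replicate 1. da, the common partner of proneural proteins, fell by 1.46 from T0 to T1 and rose by 1.24 from T1 to T2.

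Of 13 dorsoventral and early zygotic regulators 8 were measured, and 5 were higher at T1 than at T0, against 7.82% of all probe sets. sna, which encodes the repressor of the Bearded complex in the mesoderm, rose by 5.77 ± 0.29 (adjusted p = 4.2e-09), from 20.2 ± 11.4 to 1385 ± 49.4. twi, the mesoderm activator, rose by 5.78 ± 0.29 (adjusted p = 3.7e-09), and its T4 arrays, at 630.8 to 778.4, lay below all those of T1 to T3, of which the lowest read 1019 (T4 against T3 -0.76 ± 0.29, adjusted p = 0.26, not called). Both were thus called at the same step as Tom, Brd and Ocho, and at T2 sna stood at 99.1% and twi at 173% of its T4 mean. zld, the activator of the zygotic genome, rose by 2.34 and fell again by 1.44 from T1 to T2 (adjusted p = 0.0024). It then went from 211 ± 15.2 at T2 to 453 ± 28.2 at T4 (log2 difference 1.07, limma adjusted p = 0.018), a call lost under 6 of 15 alternatives. zen, a regulator of dorsal fates, rose by 5.27, then fell by 1.40 from T1 to T2 and by 1.79 from T3 to T4 (the last call lost without T3 replicate 2), and dpp, the dorsal ligand, rose by 2.78. ind and Dr, columnar genes of the neuroectoderm, were at background at T1 and read 245 ± 3.78 and 40.9 ± 4.09 at T2 (adjusted p = 2.6e-08 and 3.2e-05). dl, which encodes Dorsal, was not called and read 9.83 ± 5.55 at T0. Its probe set was at background on all 3 arrays of each stage from T0 to T3 and on 2 of 3 at T4. It does not show whether the transcript was absent or below what these probes measure.

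Each family gene was also set against the other genes with a stage mean above background, 7810 of them (7811 for E(spl)m6-BFM), and the 3 with the highest Pearson r over the 15 arrays were taken. For Tom these were Ama (0.997), a secreted immunoglobulin-domain protein, Gli (0.992), a septate junction protein, and Flacc (0.991). For Brd they were ogre (0.996), which encodes an innexin, Tmhs (0.993) and bou (0.993). Ama (0.992) also led for Ocho, before BNIP3 (0.991) and CG12581 (0.990).

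In the Enhancer of split group the closest gene to E(spl)m4-BFM was comm2 (0.990), before msb1l (0.987) and ImpE2 (0.986). E(spl)malpha-BFM was closest to peb (0.981), which encodes a zinc finger protein, and next to a gene of its own complex, E(spl)m5-HLH (0.978), before CG18766 (0.977). E(spl)m2-BFM was closest to CG13912 (0.970), CG9512 (0.958) and ds (0.947), an atypical cadherin gene. For E(spl)m6-BFM, at background, the highest r was 0.812 with CG13643. Many genes of the early zygotic set share such a course over 5 stages, so a high r does not single out a gene.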

How the data were processed

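The deposited values are signals, 1 per probe set and array, for which MAS5 is named per the submitters' processing notes; its version and the genome build are not given in the sources used here. All columns matched 1 sample each, and 0 were left unmatched. Of 14010 probe sets 44 controls were left out and 13966 tested; the platform annotation gave 12443 of them a single gene symbol, 327 more than 1 and 1196 no symbol. A gene with more than 1 probe set was represented by the brightest on average. Levels of different probe sets were not compared with each other.

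Log2(signal + 7.3), where 7.3 is the typical 25th percentile of an array (its median over the 15), was fitted with a mean per stage over all 15 arrays in limma 3.58.1 under R 4.3.3 (lmFit, eBayes), with Benjamini-Hochberg adjustment over all probe sets per comparison. A probe set at or below 21.96 on every array of a stage was given an "at least" fold, for which that stage was set to 21.96. The fit was tested on simulated data. Samples were grouped by their titles. Same-numbered arrays of different stages did not deviate together (r of -0.04 to 0.08 over 23 pairs), so replicate numbers were not used as a block. The number of arrays limits the precision.

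All members are given. The rule for named pathway genes was the called genes of the repressor, processing and dorsoventral lists, up to 4 per direction and step, and up to 2 uncalled genes per list with the highest signal; called genes named from other lists were taken with their values known. Of the 3 Bob genes none had a single-symbol probe set, so none is analysed as a gene here. A probe set with 2 symbols, 1 of them of a Bearded complex gene, is described under other observations. The members and lists were chosen with earlier results of these data known. As alternatives, the values were quantile normalized, or centred on each array's median or its 33 ribosomal protein probe sets; further ones were pseudocounts of 1 and 29.3 (the median signal), leaving out the dimmest 40%, a variance trend with robust settings, a replicate block, a fit of only the 2 stages compared, and the omission of single arrays.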

Additional observations from a re-analysis of the deposited data

How the results depend on the processing

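Of 714 member values recomputed under the alternatives, 676 kept direction and side of the threshold, 13 lost their call, 11 gained one and 14 changed sign, all of these uncalled. The number of family probe sets called was 7 for T4 against T0 and 3 for T4 against T2 (a comparison added after seeing the data) under every alternative. For T3 against T2 it was 1, with 0 under a pseudocount of 1, the replicate block and the 2 stages alone, and 0 to 1 with an array left out. It was 2 with the median-signal pseudocount (E(spl)malpha-BFM and E(spl)m4-BFM, with E(spl)m2-BFM lost) and with the variance trend (E(spl)m2-BFM and E(spl)m4-BFM). For T4 against T3 it was 0, and 1 with the median-signal pseudocount (E(spl)malpha-BFM, 1.01). The replicate block also called Tom for T2 against T1 (adjusted p = 0.017) and changed no other member call but that of E(spl)m2-BFM.

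Sign changes were, for T1 against T0 with ribosomal centring, E(spl)malpha-BFM to -0.30, E(spl)m2-BFM to -0.34 and E(spl)m6-BFM to -0.13; for T3 against T2 with the replicate block, Tom to -0.17 and Brd to -0.09, with ribosomal centring the second Ocho probe set to 0.08 and E(spl)m6-BFM to 0.03, and with an array left out the former ran from -0.19 to 0.08 and the latter from -0.54 to 0.26; for E(spl)m6-BFM, T4 against T0 to -0.22 with ribosomal centring and T4 against T2 ran from -0.08 to 0.74 with an array left out.

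Ribosomal centring moved the median log2 difference of all probe sets from 0.08 to -0.67 for T1 against T0 and from 0.19 to -0.51 for T4 against T0.

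The share of higher among all calls was 34.2% for T1 against T0, 44.7% with quantile normalization, 47.7% centred on the median and 7.0% on ribosomal proteins. For T2 against T1 it was 55.9%, and 32.1% centred on the median; for T3 against T2 46.3%, and 67.8% with ribosomal centring; for T4 against T3 48.0%, then 36.2% (quantile) and 28.1% (median); for T4 against T0 49.2%, then 36.2% (median) and 16.5% (ribosomal); for T4 against T2 59.7%, then 43.0% (median) and 71.1% (ribosomal). Probe sets called higher numbered 1092 for T1 against T0, with 1716, 290 and 684 (median, ribosomal, median-signal pseudocount); 753 for T2 against T1, with 421 and 346 (median, pseudocount); 1664 for T4 against T0, with 679 and 1054 (ribosomal, pseudocount); and 666 for T4 against T2, with 394 and 410 (pseudocount, 2 stages alone). For T3 against T2 93 fell to 6 and for T4 against T3 72 to 6 with the 2 stages alone. The cause was not tested.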

Other observations

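A further probe set (151283_s_at) carries 2 gene symbols in the annotation, 1 of them of a gene in the Bearded complex, so no gene is named from it. Its mean signal was 26.1 ± 18.8 at T0, 477 ± 42.1 at T1, 2173 ± 142 at T2, 2107 ± 199 at T3 and 2390 ± 107 at T4 (SD, n = 3). It was called at T1 against T0 (log2 difference 4.05, limma adjusted p = 5.9e-07) and at T2 against T1 (2.17, adjusted p = 0.00073), and not at T4 against T2 (0.14, adjusted p = 0.87). At T2 it stood at 90.9% of its T4 mean, above the 64.9% to 75.8% of Tom, Brd and Ocho at that stage.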
